A study of Mus musculus with 5 samples.

Results

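The S100 genes were followed in GL261 cells, a mouse glioma line that is widely grafted into C57BL/6 mice, at 24 h after exposure to sodium propionate or sodium chloride. S100a1, S100a4, S100a6, S100a10, S100a11, S100a13, S100a16 and S100b were chosen by name, as 8 of the 55366 reference genes listed in the files. All 8 passed the minimum for testing, a mean of at least 1 TPM (the transcript's share of each library's RNA molecules, scaled by its length). Propionate, a short-chain fatty acid, is a product of bacterial fermentation in the gut, and the chloride salt was the control. The labels give 1 uM for either salt, and this dose is printed as labelled. The control group is 3 libraries (chloride 1, 2 and 3) and the treated group is 2 libraries (propionate 2 and 3). Propionate 1 was not analysed here. All libraries are of total RNA from the same cell line, with no other treatment or genetic change named in the labels. Separate cultures are not named in the labels, and p-values therefore measure only the spread between these libraries, which may be technical.

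S100 proteins are small calcium sensors, each built of a pair of EF-hand loops, and most work as dimers. On binding calcium they open a surface that grips partner proteins such as annexins, myosin and p53, and several are also released and act on the receptor RAGE (Ager) or on Tlr4. In brain, S100b is a classical marker of astrocytes and related glia. S100a4, S100a6, S100a10 and S100a11 are known for roles in motility, membrane repair and invasion of tumour cells.

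Of the members, 7 lie on chromosome 3 and S100b lies on chromosome 10 (build mm10, coordinates as deposited). S100a1 (ENSMUSG00000044080, chr3:90511034-90514392, minus strand) and S100a13 (ENSMUSG00000042312, chr3:90514435-90524581, plus strand) face away from each other, with 42 bases between their starts. S100a16 (chr3:90537254-90543151), S100a4 (ENSMUSG00000001020, chr3:90603771-90606045) and S100a6 (ENSMUSG00000001025, chr3:90612882-90624289) follow on the plus strand. S100a11 (chr3:93520488-93526287) and S100a10 (ENSMUSG00000041959, chr3:93555080-93564643) form a separate plus-strand pair. S100b (ENSMUSG00000033208) spans chr10:76253853-76264851 on the plus strand.

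The upstream sequences of S100a4, S100a6 and S100b are shown because these are the members with the highest coverage of a coding exon, and because S100b had a fitted change below 0 where the other 2 were above it. Each is the 250 bases before the RefSeq start, on the gene's strand, from GRCm38.p6: chr3:90603520-90603769 for S100a4, chr3:90612644-90612893 for S100a6 and chr10:76253586-76253835 for S100b. Capitals mark matches to TATAAA or to CCAAT, searched on both strands, so ATTGG is CCAAT read from the other strand.
S100a4: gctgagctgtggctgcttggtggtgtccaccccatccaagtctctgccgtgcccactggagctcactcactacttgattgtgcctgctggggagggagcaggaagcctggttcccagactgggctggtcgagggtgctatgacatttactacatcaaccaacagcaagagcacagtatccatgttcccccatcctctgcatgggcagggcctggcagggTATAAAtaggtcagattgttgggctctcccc
S100a6: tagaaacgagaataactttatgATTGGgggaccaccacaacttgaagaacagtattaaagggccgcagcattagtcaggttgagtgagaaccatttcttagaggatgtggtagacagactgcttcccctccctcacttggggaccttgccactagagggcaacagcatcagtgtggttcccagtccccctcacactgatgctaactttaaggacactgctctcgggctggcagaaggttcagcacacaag
S100b: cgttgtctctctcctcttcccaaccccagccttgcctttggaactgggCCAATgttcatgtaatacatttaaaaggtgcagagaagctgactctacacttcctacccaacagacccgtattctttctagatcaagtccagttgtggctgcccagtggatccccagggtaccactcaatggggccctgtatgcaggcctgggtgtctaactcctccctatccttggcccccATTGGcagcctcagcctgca

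S100a4 has a TATAAA match that begins at position -31, counted back from its start, and no match to CCAAT. S100a6 has 1 CCAAT match, at -228, and S100b has 2, at -202 and -20. Among 32851 promoter windows of the same length, 12.4% hold TATAAA and 33.8% hold CCAAT on either strand. The AP-1 motif TGANTCA (6.75% of windows) and the GC box GGGCGG (32.7%) have no match in these 3 windows. The E box CANNTG (66.2% of windows) has 2 matches, in S100a6 at -117 and in S100b at -113, which are not in capitals, and the 3 motifs given here do not overlap one another in these windows. Windows were found for 7 of the 8 members, all but S100a10. A match is a description of the letters and not a site of binding.

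The S100 genes made up 1665 to 1776 TPM in chloride and 1888 and 2029 TPM in propionate when their gene TPM was summed. This sum did not overlap between the groups, as for 14.9% of single tested genes in the same direction. Its largest part was S100a4, with a mean of 690 TPM in chloride and 882 in propionate, while S100b went the other way (202 and 157). S100a4 was highest, at 690 ± 40.6 TPM in chloride (mean ± SD, n = 3), and ranked 120 among 13867 tested genes. S100a6 (408 ± 23.4), S100a10 (296 ± 14.1) and S100b (202 ± 6.82) came next. S100a1 (49.8 ± 2.07), S100a13 (33.7 ± 2.92) and S100a16 (24.4 ± 1.3) formed a middle group, and S100a11 was lowest at 2.32 ± 1.73 TPM. On the TPM scale this order was the same in each of the 5 libraries, and neighbours in it did not overlap within a group.

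In the fit across all genes, none of the 8 members passed the threshold in either direction, where 1.84% of all tested genes did (limma on log2(TPM + 1), Benjamini-Hochberg adjusted p under 0.05). By direction, 1.32% of the 13867 tested genes were called higher in propionate and 0.519% lower. At an unadjusted p under 0.05 the count was 3 of 8, S100a4, S100a10 and S100b, beside 16.9% of all tested genes. For 3 members each propionate library lay above every chloride library, where 14.9% of tested genes do so, and for S100b each lay below, as for 19.7% of tested genes. The fitted log2 change was above 0 in 7 of 8 members, with a median of 0.13, beside 6181 of 13867 genes and a median of -0.03.

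**Figure D1:**
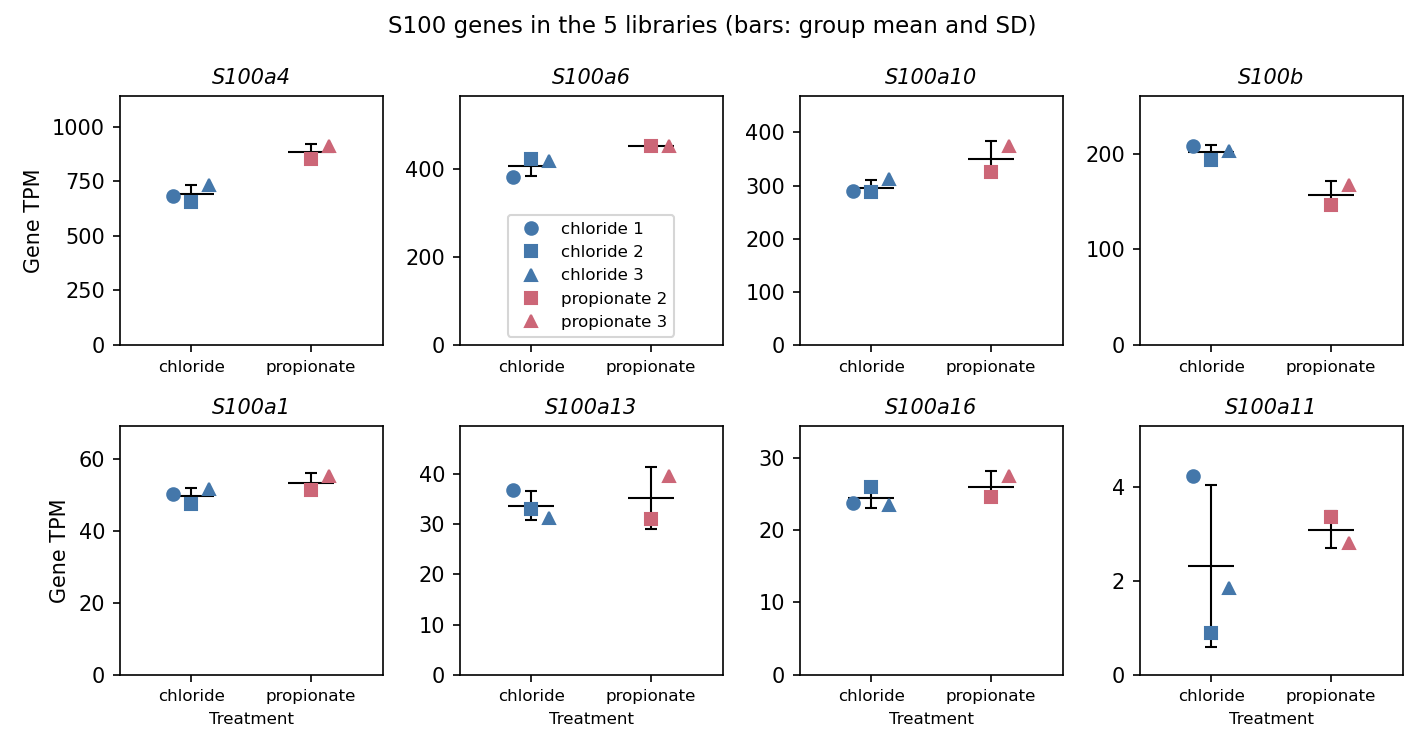
Gene TPM of the 8 S100 genes (vertical axes, each from 0) by treatment, with one symbol per library and black bars for the group mean and SD (n = 3 and 2). The propionate libraries lie above the chloride libraries for S100a4, S100a6 and S100a10 and below them for S100b, and the groups overlap for the other 4 genes.

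S100a4, also called metastasin, binds the heavy chain of non-muscle myosin and is known for promoting cell motility. It was at 683, 653 and 733 TPM in chloride and at 853 and 910 TPM in propionate. The groups did not overlap. Its propionate mean was 1.28 times the chloride mean, and the log2 change was 0.35 ± 0.08 (SE; 95% interval 0.16 to 0.55; limma adjusted p = 0.0822). It passed the threshold in 2 of 14 alternatives. These were TPM rescaled over protein-coding genes (adjusted p = 0.0254, where 5.31% of genes were called higher) and limma-voom on estimated reads (adjusted p = 0.0213, where 5.55% were). Over all 14 alternatives the log2 change stayed between 0.31 and 0.40, and the adjusted p ranged up to 0.275.

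S100a6, or calcyclin, binds annexins and the calcyclin-binding protein Cacybp. Its gene TPM was 381, 423 and 419 in chloride and 452 in each of the propionate libraries. Propionate was above chloride in every library, by less in proportion than for S100a4. The log2 change was 0.15 ± 0.08 (SE; 95% interval -0.04 to 0.34; limma adjusted p = 0.408). Limma-voom called it higher (adjusted p = 0.0319, log2 change 0.27), and no other alternative did.

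S100a10, or p11, is the family member that has lost calcium binding. It pairs with annexin A2 and carries plasminogen and its activator at the cell surface. It was at 289, 287 and 313 TPM in chloride and at 325 and 374 TPM in propionate, with no overlap and with propionate 2 close to chloride 3. The log2 change was 0.24 ± 0.09 (SE; 95% interval 0.02 to 0.45; limma adjusted p = 0.251). Without propionate 3 the log2 change was 0.13. No alternative called it.

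S100b, the glial S100 protein that binds p53 and RAGE, was the member with lower TPM in propionate. It was at 208, 194 and 203 TPM in chloride and at 147 and 167 TPM in propionate. The groups did not overlap, and the propionate mean was 0.779 of the chloride mean. The log2 change was -0.36 ± 0.09 (SE; 95% interval -0.57 to -0.15; limma adjusted p = 0.0918). It passed the threshold with median-of-ratios scaling (adjusted p = 0.035, where 1.13% of genes were called lower), with TPM over protein-coding genes (adjusted p = 0.0104, 3.45% lower) and with limma-voom (adjusted p = 0.0066, 2.5% lower). With reference transcripts only, its sign turned to 0.15 (adjusted p = 0.957), and the transcripts behind this are given further on. Each library is a bulk sample, so less RNA per cell and fewer expressing cells cannot be told apart.

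The other 4 members overlapped between the groups. S100a1, a partner of the calcium pump Atp2a2 and of ryanodine receptors in muscle, was at 50.2, 47.6 and 51.6 TPM in chloride and 51.5 and 55.4 in propionate (log2 change 0.10, 95% interval -0.11 to 0.31, limma adjusted p = 0.635). S100a16, a widely expressed member, was at 23.8, 25.9 and 23.5 against 24.5 and 27.5 TPM (0.09, interval -0.15 to 0.32, adjusted p = 0.724). S100a13, which takes part in the release of Fgf1 and Il1a, was at 36.9, 33.0 and 31.2 against 31.0 and 39.7 TPM (0.06, interval -0.24 to 0.35, adjusted p = 0.867). Leaving out 1 library moved these small changes. S100a16 was at 0.01 without propionate 3 and 0.17 without propionate 2, S100a1 at 0.05 and 0.15, and S100a13 at -0.11 and 0.23, on the log2 scale. The intervals bound how large a change the data allow, and do not show that the levels were alike.

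S100a11, or calgizzarin, an annexin A1 partner in membrane repair, was the least expressed member. It was at 4.24, 0.877 and 1.85 TPM in chloride and 3.37 and 2.81 TPM in propionate. The chloride libraries lay on either side of the propionate libraries, and the log2 change was 0.43 with a 95% interval from -0.41 to 1.26 (limma adjusted p = 0.61). The value moved from 0.08 without chloride 2 to 0.82 without chloride 1. Processed pseudogenes share its sequence: Gm12854 is 98.99% identical over 297 bases and was at 0.724 to 1.87 TPM, and Gm7665 is 98.653% identical and was at 0 to 1.32 TPM. S100a11 summed with these 2 copies was at 5.85, 3.85 and 3.66 TPM in chloride and 6.32 and 3.53 in propionate (log2 change 0.10, adjusted p = 0.878), so its own level is uncertain.

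**Figure D2:**
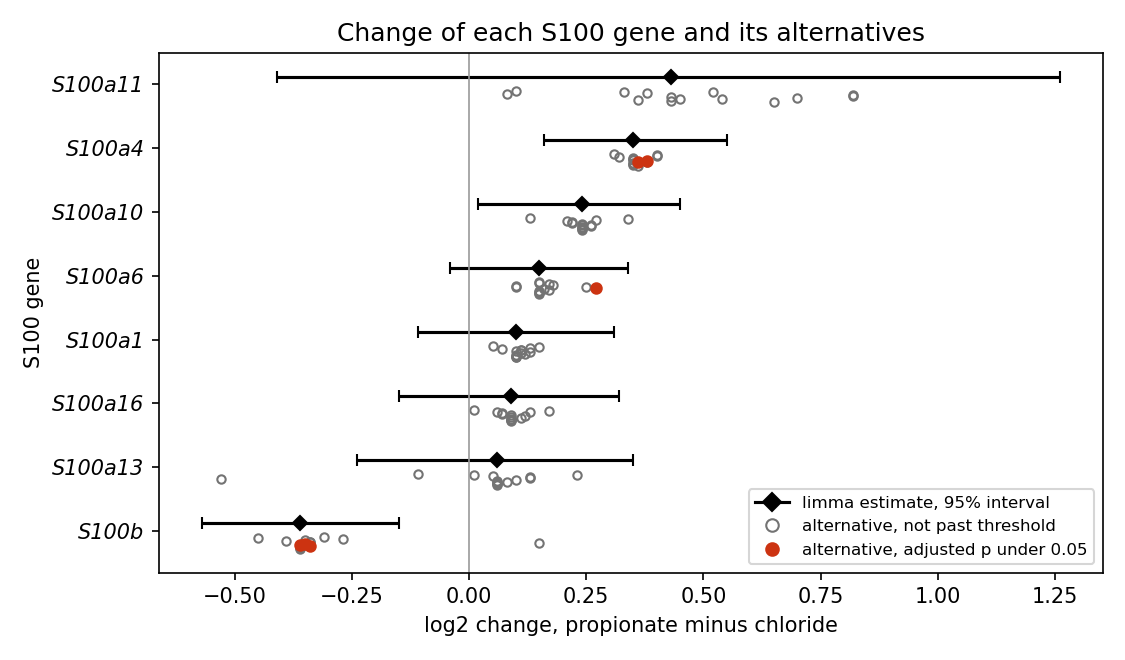
The log2 change of each S100 gene, propionate minus chloride (horizontal axis), with the limma estimate and its 95% interval in black and the alternatives as circles, filled red where the adjusted p was under 0.05. S100b has 3 filled circles near -0.35 and 1 open circle at 0.15, S100a4 has 2 filled circles, and S100a6 has 1.

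S100a4 and S100b were also set against each other within each library. The ratio of S100a4 TPM to S100b TPM was 3.29, 3.36 and 3.61 in chloride and 5.81 and 5.44 in propionate, and such a ratio does not depend on how libraries are scaled to one another. An exact two-sided permutation test of this ratio, with the one-sided p doubled, gave p = 0.2. This is the smallest p that this form of the test can give for 3 against 2 libraries. S100a4 lay higher and S100b lower in each propionate library, so the ratio had to separate the groups and this p adds no evidence. S100a6 to S100b went from 1.83, 2.18 and 2.06 to 3.07 and 2.7, with the same exact p, fixed in the same way. The ratio of S100a10 to Anxa2, the RNAs of the p11 and annexin A2 complex, was 0.677, 0.714 and 0.798 in chloride and 0.79 and 0.787 in propionate, and the groups overlapped (exact permutation p = 0.6).

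The files also give coverage per exon, the mean read depth over its bases. It was divided by the library's coverage at 1 TPM, so that 1 TPM equivalent is the depth of a transcript at 1 TPM. In all 8 members the leading transcript has its first coding bases in exon 2. In 6 of them, all but S100a13 and S100a16, this exon is 146 to 162 bases long, and exons of like length can be compared per base. The order of the members on this scale was not the order on the TPM scale. Exon 2 of S100b was at 904, 932 and 913 TPM equivalents in chloride, above exon 2 of S100a4 in the same libraries (827, 786 and 882). In propionate the order was turned, with S100b at 699 and 776 and S100a4 at 1059 and 1102. The exon 2 ratio of S100a4 to S100b was below 1 in each chloride library (0.916, 0.843 and 0.966) and above 1 in each propionate library (1.51 and 1.42). Its exact permutation p was 0.2, the smallest that this form of the test can give. Exon 2 of either gene already separated the groups, in opposite directions, so this p was fixed beforehand.

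The annotated length stood beside this difference between the scales. The files give S100b 5176 exonic bases, of which 4924 are in its last exon, whereas GENCODE M21 gives the same transcript 1484 exonic bases and a last exon of 1232. Coverage of that long last exon was 186, 174 and 181 TPM equivalents in chloride and 130 and 148 in propionate, far below exon 2. The direction was the same in all 3 exons of S100b, with propionate to chloride ratios of 0.821, 0.805 and 0.773 from exon 1 to exon 3. With exon 2 coverage in place of TPM the log2 change of S100b was -0.31 (limma adjusted p = 0.0985). In its last exon S100b overlaps Dip2a, a gene on the other strand at 3.6 to 4.99 TPM, over 2116 bases, and the files were made with no strand option.

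Exon 2 of S100a6 was at 828, 765 and 801 TPM equivalents in chloride and 861 and 1012 in propionate, close to S100a4 in chloride, although its gene TPM was lower. Its 345-base exon 1 was at 40.8 to 42.1 TPM equivalents in chloride and at 48.07 and 55.85 in propionate. All 3 exons of S100a4 had ratios of 1.26 to 1.3, and those of S100a10 had 1.17 to 1.2. In these exons too the propionate libraries lay above the chloride libraries. S100a13 was uneven along its length: exon 3 was at 60.15 to 77.87 TPM equivalents in chloride, and exon 2 at 7.94 to 9.43.

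**Figure D3:**
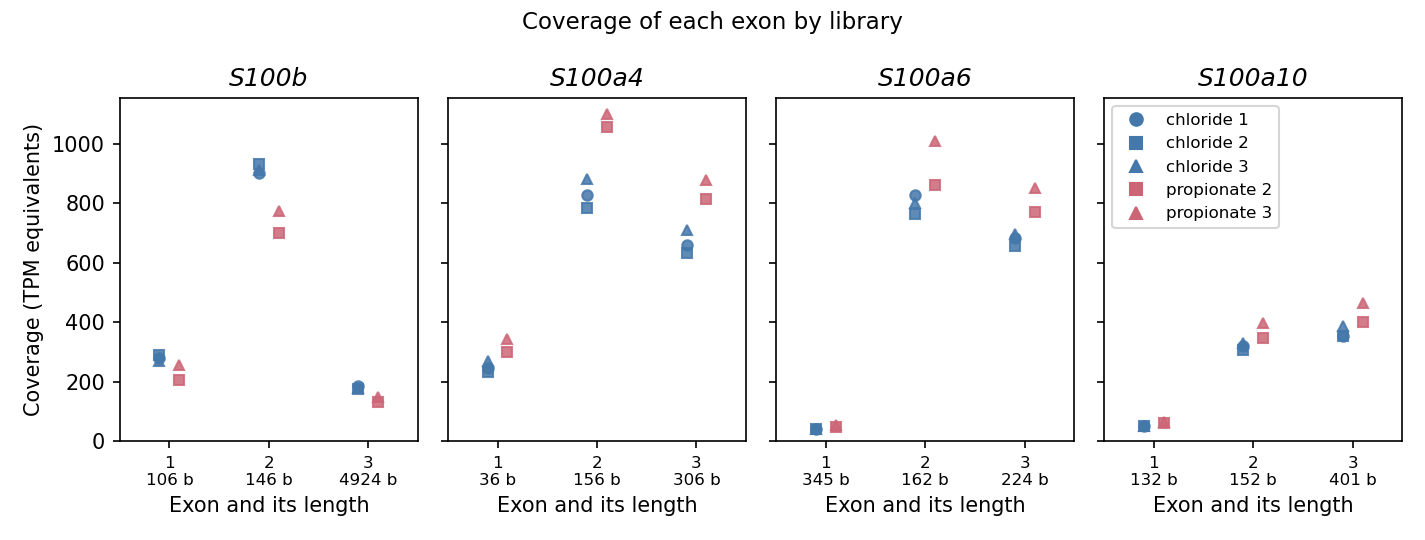
Coverage of each exon in TPM equivalents (vertical axis from 0) for S100b, S100a4, S100a6 and S100a10, by exon and exon length in bases, with 1 symbol per library. Exon 2 of S100b is at 904 to 932 in chloride and at 699 and 776 in propionate, and exon 2 of S100a4 is above it in the propionate libraries only.

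The estimated make-up of 3 members differed between libraries of the same group. S100a4, S100a10 and S100a1 each had 1 transcript that held at least 95.5% of the gene's TPM in every library. S100a11 has only 1 transcript listed, so its share is fixed. S100a13 was instead given to its reference transcript in chloride 1, chloride 2 and propionate 3 (100%) and to an assembled transcript in chloride 3 (98.1%) and propionate 2 (97.2%). The assembled transcript begins 34 bases earlier and starts its exon 2 3 bases later than the reference. Gene TPM stayed between 31.0 and 39.7 through this exchange, while the reference transcript alone was at 0.581 and 0.881 TPM in chloride 3 and propionate 2.

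For S100b, the reference transcript held 88.1%, 17% and 99.6% of gene TPM in chloride and 73.5% and 78.2% in propionate, and an assembled 4-exon transcript held nearly all the rest. Chloride 2 alone stood apart: its reference transcript was at 33.0 TPM and its assembled transcript at 161 TPM. Summed alone, the reference transcripts of S100b were at 183, 33.0 and 202 TPM in chloride and 108 and 131 in propionate, and the groups overlapped. For S100a6, an assembled transcript that reaches 39090 bases along the chromosome was at 170 TPM in chloride 1 and at no more than 1.38 TPM elsewhere, and another was at 147 TPM in propionate 3 and 40.8 TPM in chloride 1. Reference transcripts of S100a6 alone summed to 170, 423 and 416 TPM in chloride and 449 and 305 in propionate, and these groups overlap. For S100a16 the share of the transcript with the upstream start was 3.55%, 4.33% and 7.06% in chloride and 23.0% and 9.84% in propionate, given with no test.

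**Figure D4:**
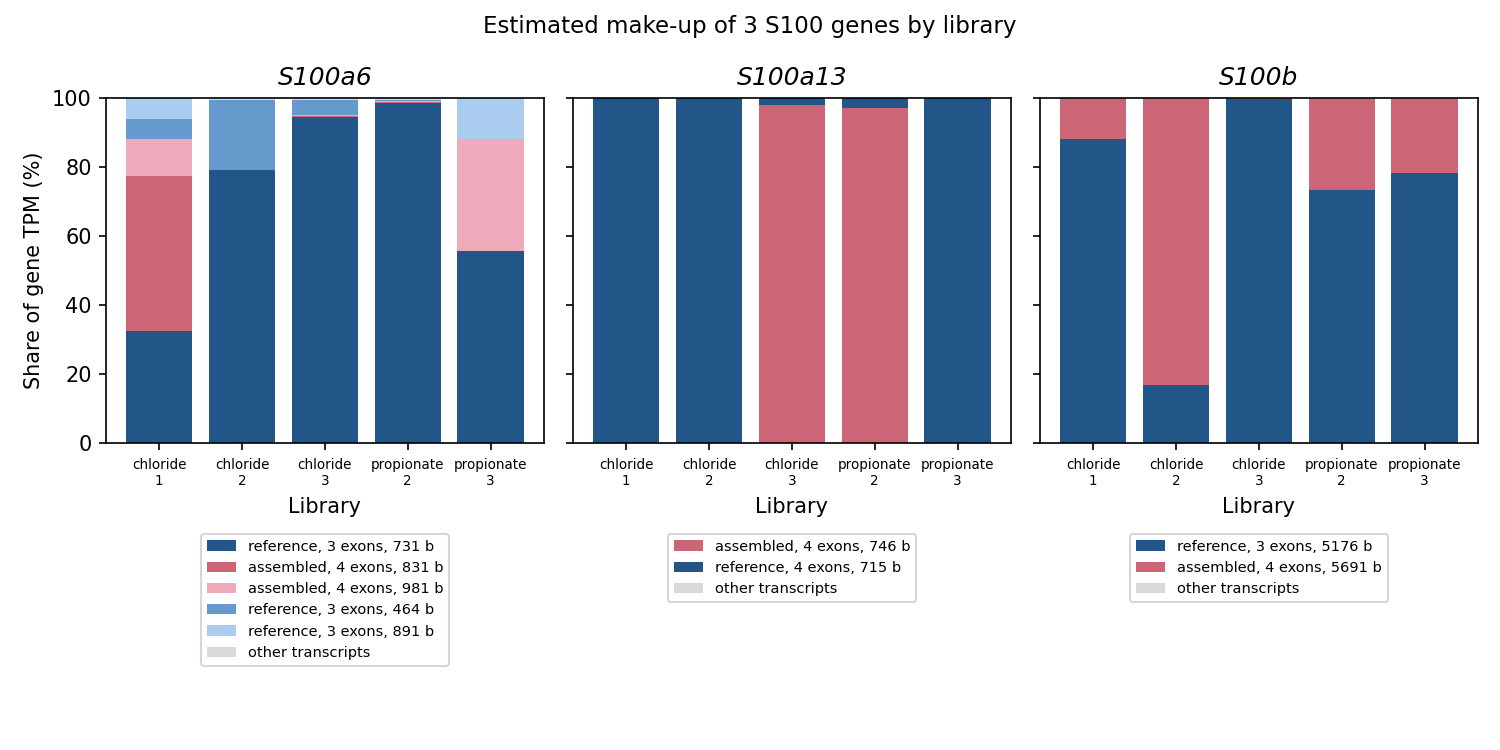
Share of gene TPM in percent (vertical axis) held by each estimated transcript of S100a6, S100a13 and S100b in the 5 libraries, with reference transcripts in blue and assembled transcripts in red. S100a13 switches to its assembled transcript in chloride 3 and propionate 2, and S100b does so mainly in chloride 2.

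Other S100 genes were low. Of 11 further names looked for, 10 are listed and only S100pbp had a mean of at least 1 TPM. It codes for a protein that binds S100P and is not itself an S100 gene. S100pbp was at 18.5, 14.6 and 15.9 TPM in chloride and 15.9 and 15.2 in propionate (log2 change -0.06, limma adjusted p = 0.851). The other 9 reached at most 1.41 TPM in any library, and 3 of them, S100a9, S100g and S100z, were listed at 0 in all 5.

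A list of 35 binding partners and receptors of S100 proteins was then read in the same fit. Of 27 tested genes, 2 were called higher and none lower, Myh9 and Plat, where 1.32% of all tested genes were called higher. An unadjusted p under 0.05 was found for 10, beside 16.9% of all tested genes, and limma-voom called 8 higher, beside 5.55%. The 27 include Asic1, which reached the minimum level only through the propionate libraries. The groups did not overlap for 15 of the 27, with 10 higher and 5 lower, where 34.6% of all tested genes do not overlap. The median log2 change was 0.08, and 16 of 27 were above 0. Ager, the RAGE receptor, was among the 8 genes too low to test, at 0.118 to 1.12 TPM.

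Myh9, the non-muscle myosin heavy chain that S100a4 binds, rose. It was at 92.6, 88.3 and 85.3 TPM in chloride and 123 and 130 in propionate (log2 change 0.50, limma adjusted p = 0.0308). The size of this change moved with the setting, to 1.32 with reference transcripts only and 0.41 with limma-voom. Plat, the tissue plasminogen activator that S100a10 binds, was at 30.0, 30.8 and 31.1 TPM in chloride and at 41.9 and 50.2 in propionate (0.57, adjusted p = 0.0388). Each passed the threshold in 8 of 15 fits. Myh9 did not pass without chloride 1, 2 or 3 (adjusted p = 0.0792, 0.107 and 0.0937) nor without propionate 2 or 3 (0.0616 and 0.115). Plat passed without propionate 2 (0.0457) and not without any of the other 4 libraries (0.109, 0.101, 0.0765 and 0.143, in the same order).

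Other partners did not pass. Asic1, an acid-sensing ion channel, was at 0.272, 0.459 and 0.369 TPM in chloride and 1.36 and 4.67 in propionate, and because it was tested only through its level in propionate these values are a description. Plaur, the urokinase receptor, was at 8.46, 6.89 and 6.74 TPM in chloride and 10 and 13.3 in propionate (log2 change 0.59, limma adjusted p = 0.0962). Bsg, a surface glycoprotein also called basigin, had a log2 change of 0.29 (adjusted p = 0.17), and Fgf1, the growth factor released with S100a13, of 0.62 (0.18). The groups did not overlap for any of these 4 genes.

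The annexins had values on either side of 0. Anxa2 was at 427, 402 and 392 TPM in chloride and 412 and 475 in propionate (log2 change 0.12, limma adjusted p = 0.562). Anxa1 (-0.10, adjusted p = 0.665), Anxa5 (-0.19, 0.336), Anxa6 (0.18, 0.39) and Anxa11 (0.39, 0.293) did not pass either.

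**Figure D5:**
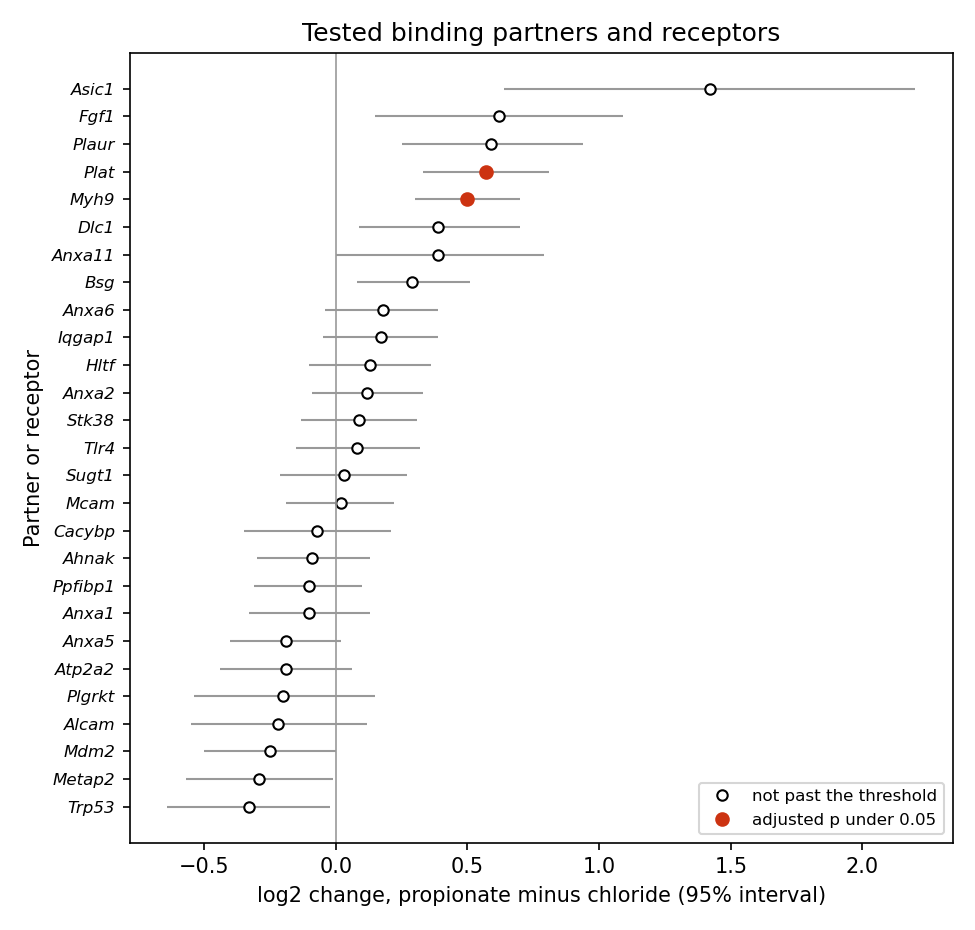
The log2 change, propionate minus chloride, of the 27 tested binding partners and receptors (horizontal axis; lines are 95% intervals), sorted by size, with filled red points for adjusted p under 0.05. Only Myh9 (0.50) and Plat (0.57) are filled, and the interval of Asic1 is the widest.

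Other calcium sensors with EF hands gave no call. Of 28 such genes 24 were tested and none passed the threshold in limma. An unadjusted p under 0.05 was found for 3, beside 16.9% of all tested genes, and limma-voom called 1 higher, beside 5.55%. Cetn3, a centrosomal centrin, was at 35.0, 37.5 and 34.9 TPM in chloride and 26.9 and 31.1 in propionate (log2 change -0.30, limma adjusted p = 0.192). Ncs1, a neuronal calcium sensor, had a log2 change of 0.34 (limma adjusted p = 0.27) and Capns1, the small calpain subunit, one of -0.17 (0.368). The median over the list was 0.03, and the groups did not overlap for 9 of 24, near the 34.6% of all tested genes.

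Genes within 100 kb of a member were read in the same way. Of 38 such genes 9 were tested and none passed the threshold in limma. An unadjusted p under 0.05 was found for 2 of the 9, beside 16.9% of all tested genes, and limma-voom called 1 lower, beside 2.5%. Gm16048, an antisense transcript near the chromosome 3 group, lies within the span of Npr1, on the other strand. Estimates were made with no strand option, so the values of Gm16048 and Npr1 may not be independent. Gm16048 was at 4.86, 5.85 and 5.12 TPM in chloride and 2.91 and 3.58 in propionate (log2 change -0.56, limma adjusted p = 0.0915). Pcnt, the pericentrin gene beside S100b, had a log2 change of -0.26 (adjusted p = 0.256), Npr1 -0.24 (0.406) and Ilf2 -0.14 (0.518). The fitted change was above 0 in 1 of the 9, Prmt2, beside 7 of the 8 members and 6181 of 13867 tested genes.

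The tested genes whose pattern over the 5 libraries lay nearest to a member were found by the root mean square difference of log2(TPM + 1), each gene centred on its own mean. Nearest to S100a4 were Gm9449 (difference 0.00646, at 2.77 to 4.28 TPM) and Magi1 (0.0148, at 5.83 to 8.63 TPM), both far lower in level. The median over 13866 genes was 0.237, and the smallest of so many differences lies far below it by selection. Nearest to S100a6 were Gm15500 (0.0159) and Pdcd2 (0.018). Nearest to S100b were Fam219b (0.0241), at 9.71, 8.58 and 9.01 TPM in chloride and 6.34 and 7.35 in propionate, and Gps1 (0.0258). These values describe 5 libraries and carry no test.

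The cell line was checked against fixed marker lists. Of 9 neural and glial markers 7 were tested, with Vim at 5472 to 7073 TPM, Sox10 at 104 to 142 TPM and Sox2 at 52.1 to 85.3 TPM. Slc1a3 and Olig2 stayed under 1 TPM. Gfap was low, at 5.13, 5.2 and 3.22 TPM in chloride and 5.24 and 6.59 in propionate (log2 change 0.34, limma adjusted p = 0.418). This direction is opposite to that of S100b. Nes, at 44.2 to 51.5 TPM, had a log2 change of 0.07, and Aldh1l1, at 11.7 to 15 TPM, one of 0.09. Fabp7, a radial glia marker, rose (log2 change 0.77, limma adjusted p = 0.0188), and the list's summed TPM was 5717 to 7345 in chloride and 6353 and 7162 in propionate. Among genes of pigment cells and Schwann cells, which also make S100b, Dct was called higher (0.90, limma adjusted p = 0.00542) and Mlana was listed at 0. The 9 myeloid markers summed to 17.9 to 19.8 TPM in chloride and 26.0 and 30.3 TPM in propionate. This sum came from Lyz2 and Cd68, with no call, while Itgam and Tyrobp were listed at 0 in all libraries and Ptprc reached 0.0457 TPM.

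Of the 4 epithelial markers, which summed to 8.81 to 10.5 TPM in chloride and 14.9 and 18.9 TPM in propionate, Krt8 was called higher (0.83, limma adjusted p = 0.0417). The 5 fibroblast and pericyte markers summed to 0.639 to 1.01 TPM and 1.98 and 2.51 TPM, mostly Pdgfrb. The 4 endothelial markers summed to at most 0.264 TPM, the 5 lymphocyte markers to at most 0.184 TPM and the 4 neuron markers to at most 0.0423 TPM. The part of these marker differences in the values of S100 genes was not tested. The calls of Fabp7, Krt8 and Dct were lost without propionate 3 (adjusted p = 0.115, 0.201 and 0.0608), and without chloride 1 those of Fabp7 and Krt8 were too (0.0671 and 0.0656). Krt8 also missed the threshold without chloride 2, chloride 3 or propionate 2 (0.0643, 0.0607 and 0.0877).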

How the data were processed

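Total RNA of 5 samples was made into libraries with a stranded kit, per the labels' protocols. Tools named without versions in the submitters' processing notes are HISAT2, StringTie, fastp and bcl2fastq, with mm10 as the genome build. Per the file headers, StringTie 2.1.1 estimated TPM, FPKM and coverage of each transcript of a merged annotation, with no strand option and no read counts, and the authors deposited these attributes. Aligned bases, taken from coverage and FPKM, were 7.19 to 7.63 Gb per library.

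Gene TPM summed a gene's reference transcripts and the assembled transcripts that overlap its exons. Genes with a mean of at least 1 TPM (13867) were tested with limma 3.58.1 (R 4.3.3) on log2(TPM + 1), with a trend, group as the only term, two-sided, and Benjamini-Hochberg adjustment, so fold changes of low genes are understated. On simulated data for this comparison of 13867 genes, 41.2% of changes of 0.5 (log2), 89.4% of 1 and 100% of 2 were called, and 8.38% of calls were false. Sequences came from RefSeq (GRCm38.p6), and copies from blastn 2.17.0 over GENCODE M21 transcripts, at 90% identity over 200 bases.

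Members, lists and the naming rule (all members; from each list every gene past the threshold and up to 4 others with the smallest p; the annexins, S100a9, S100g, S100z, Ager, Prmt2 and the marker genes given besides were picked after their values were seen) were chosen with earlier results of these data known. Alternatives were another pseudocount (0.1), minimum TPM (5 or none), FPKM, scaling, limma-voom on aligned bases divided by 100, reference transcripts only, a replicate block and leaving out each library; S100a11 with its copies and S100b by exon 2 coverage were added after seeing the data. Values of some listed genes are not reported here.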

Additional observations from a re-analysis of the deposited data

How the results depend on the processing

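Of 113 recomputed log2 changes of single members, 104 kept their direction and their side of the threshold, 6 passed it and 3 changed sign. Passing values were those of S100a4 (0.36 with TPM over protein-coding genes, 0.38 with limma-voom), S100a6 (0.27 with limma-voom) and S100b (-0.36 over protein-coding genes, -0.35 with limma-voom, -0.34 with median-of-ratios scaling). Members called higher numbered 0 in the reported fit, 1 over protein-coding genes and 2 with limma-voom, and members called lower numbered 0, against 1 under each of these and 1 with median-of-ratios scaling. S100a13 went to -0.53 and S100b to 0.15 with reference transcripts only, where the reported sums include assembled transcripts that exchange coverage with them, and S100a13 ranged from -0.11 to 0.23 on leaving out a replicate, with the low value without propionate replicate 3; the cause was not tested. S100a11 was not tested at a minimum of 5 TPM.

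Over all genes, 183 were called higher and 72 lower. The counts were 2 and 1 with no minimum, 635 and 412 over protein-coding genes, 371 and 157 with median-of-ratios scaling, 770 and 346 with limma-voom, 5 and 6 with reference transcripts only, and 127 lower (251 higher) with FPKM. The cause of these shifts was not tested. Leaving out each replicate gave 8 to 126 higher and 7 to 45 lower, with the lowest counts without propionate replicate 3.

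With the replicate number as a block, 275 genes were called higher and 117 lower, and no member passed the threshold. S100a4 was at 0.35 (limma adjusted p = 0.163) and S100b at -0.34 (limma adjusted p = 0.283). Replicate 1 is in chloride only, so the block takes chloride 1 out of the treatment estimate. The fit without chloride 1 gave these members the same log2 changes. Replicate numbers 2 and 3 occur in both groups. Deviations of same-numbered libraries from their group means correlated at -0.229 and -0.197 across genes, and those of differently numbered libraries at 0.229 and 0.197. These values mirror each other because the 2 propionate libraries deviate from their mean by opposite amounts. They cannot tell whether same-numbered libraries share more than a number. At this depth S100a11 sits where 1 library can set its value, and coverage is the only measure of depth in these files.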
